A study of Homo sapiens with 2 samples.

Results

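Expression of 10 human genes of the NF-kB system was examined in a lymphoblastoid cell line: the subunit genes NFKB1, NFKB2, RELA, RELB and REL, the IkB genes NFKBIA, NFKBIB, NFKBIE and BCL3, and the feedback regulator TNFAIP3. They were taken by symbol, as every analysed probe set whose platform annotation names 1 gene from this set. That gave 15 probe sets for 9 of the 10 genes, out of 29493 probe sets with 1 symbol and 16716 genes. Both analysed BCL3 probe sets carry a further gene symbol, so no BCL3 signal is given. Only the 36289 probe sets with the lowest identifiers were analysed, and the array carries others. Statements on all or the only probe sets of a gene, here and below, cover those 36289 alone.

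The samples were 2 RNA preparations of 1 group, replicates 1 and 2 of a B-cell line made immortal with Epstein-Barr virus, grown in RPMI1640 with fetal calf serum and no stated treatment. Sample titles spell the line GM06690 and the culture protocol spells it GM06990. Each preparation was hybridised to 1 Affymetrix Human Genome U133 Plus 2.0 array. A single group allows no comparison of conditions, and no test was run. All values below are descriptions, given as the log2 RMA signal of replicates 1 and 2 in that order, or as mean ± SD (n = 2). Nothing in the labels says whether the replicates came from separate cultures, so their spread may be technical.

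NF-kB is a family of transcription factors that bind DNA as dimers of REL-homology subunits. RELA, RELB and REL carry their own activation domains, whereas NFKB1 and NFKB2 encode the precursors p105 and p100, from which p50 and p52 are made. Some IkB proteins, such as IkB alpha, hold the dimers inactive in the cytoplasm until IkB kinase marks these IkB proteins for degradation. NF-kB in turn induces several of its own inhibitors. In B cells immortalised by Epstein-Barr virus, the viral membrane protein LMP1 acts like a constantly active CD40 receptor and is known to drive both the classical and the alternative arm of the pathway.

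To judge whether a signal stood above background, each array was given a level: the 95th percentile of the signals of 78 genes known mainly from other tissues (liver, muscle, brain, eye and the like). On both arrays the level was 5.41 (log2), an intensity of 42.6. Among those 78 genes MBP, singled out after its value was seen, had a signal of 10.30 and 10.36, so the list was not wholly silent. The arrays had a Pearson r of 0.997 across probe sets. Of the B-cell lineage genes, 10 of 10 measured lay above the level, where 54.1% of all 16716 genes did. They included MS4A1 (13.19 ± 0.10), which encodes CD20. Not every probe set of CD79B, PAX5, CD22, BLK and POU2AF1 was above. In 5 marker lists of other cells, 5 of 41 measured genes lay above the level. These were PRF1 of NK cells (5.74), S100A9 of myeloid cells (5.78), HBB of red cells (6.17), and COL1A1 (7.24) and DCN (5.80) of fibroblasts. None of the 10 T-cell genes lay above the level on both arrays, and 2 did on replicate 1.

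All 9 measured NF-kB genes lay above the background level on both arrays, where 54.1% of all 16716 genes did. By probe set the count was 13 of 15, against 49.7% of all probe sets with 1 symbol. The median signal of the 9 genes was 9.60, and that of all genes 6.10. Probes differ in how well they bind, so these medians describe signals, and no order of abundance between genes is read from them. In whole-culture RNA, fewer expressing cells and less RNA per cell cannot be told apart.

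**Figure D1:**
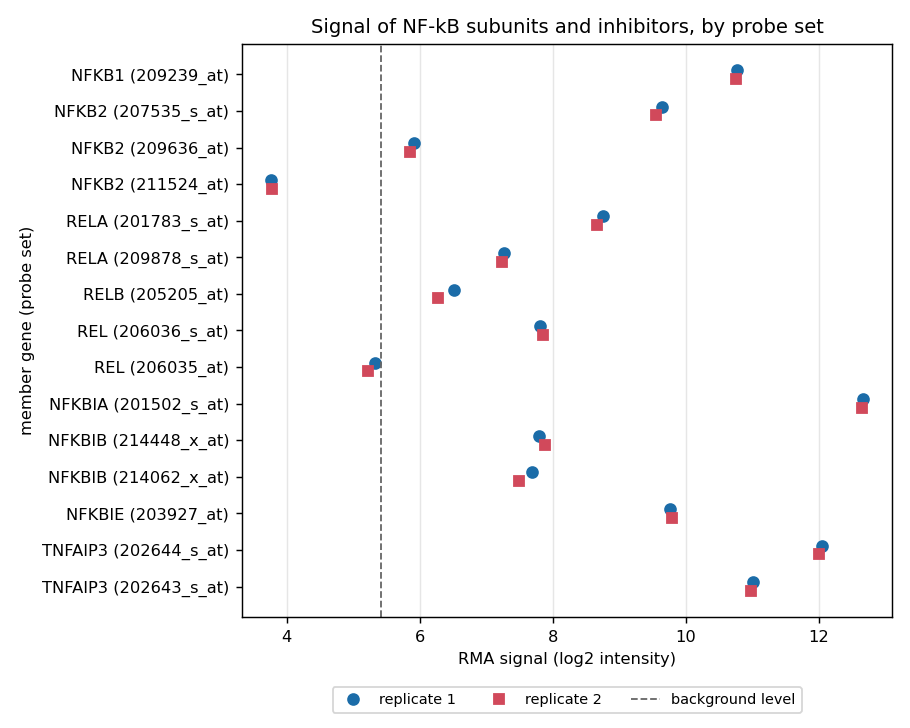
Signal of each of the 15 probe sets (rows, grouped by gene) on each array; the x axis is the log2 RMA signal and the dashed line the background level of 5.41. Circles are replicate 1 and squares replicate 2, and 13 of the 15 pairs lie to the right of the line.

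Both precursor genes gave signals well above background. NFKB1, the source of p50, had a log2 signal of 10.77 in replicate 1 and 10.75 in replicate 2, intensities of 1747 and 1723. These values came from its only analysed probe set. NFKB2, the source of p52 and the hallmark of the alternative arm, had 9.65 and 9.56 from its brightest probe set. The other NFKB2 probe sets read much lower, 5.92 and 5.86 for one, just above the level, and 3.77 and 3.78 for the other, below it on both arrays. Thus 2 of the 3 NFKB2 probe sets were above the level on both arrays, the dimmer of these at only 1.42 and 1.36 times the level.

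The 3 subunit genes with activation domains were also above background. RELA, the main activating partner of p50, had log2 signals of 8.76 and 8.67 from one probe set and 7.26 and 7.23 from the other. Both RELA probe sets were above the level on both arrays. REL, which encodes c-Rel, the subunit most tied to lymphocytes, had 7.80 and 7.86 from the brighter probe set and 5.34 and 5.23 from the dimmer. The dimmer REL probe set was below the level on both arrays. RELB, which pairs with p52 in the alternative arm, had 6.52 and 6.28 from its only analysed probe set, 2.15 and 1.82 times the level. RELB no longer exceeded the level when the 99th percentile of the tissue-restricted genes was used.

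The inhibitor genes were above background by every analysed probe set. NFKBIA, which encodes IkB alpha, the inhibitor that NF-kB resynthesises after each activation, had 12.66 and 12.65, an intensity of 6473 in replicate 1 and 6435 in replicate 2. That was 152 and 151 times the background level. NFKBIE, which encodes IkB epsilon, had 9.76 and 9.80, or 20.4 and 20.9 times the level. NFKBIB, which encodes IkB beta, had 7.79 and 7.89 from the brighter and 7.69 and 7.50 from the dimmer of its probe sets. Both NFKBIB probe sets end in _x_at, a mark for probes that can bind further transcripts, so the NFKBIB values are uncertain.

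TNFAIP3 encodes A20, a ubiquitin-editing enzyme that shuts down signalling upstream of IkB kinase and is itself induced by NF-kB. Its brighter probe set had 12.04 in replicate 1 and 12.01 in replicate 2, 98.8 and 96.7 times the level. Its dimmer probe set had 11.01 and 10.97. Both TNFAIP3 probe sets were thus above background on both arrays.

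Calls could differ between the probe sets of a gene. Of the 5 members with more than 1 probe set, RELA, NFKBIB and TNFAIP3 were above the level by all of them, while NFKB2 and REL were not. Among all 7350 genes with at least 2 probe sets, 35.1% were above by all of them. Leaving out probe sets that end in _x_at or _s_at, which may bind several transcripts, left 5 members to measure. RELA, NFKBIA, NFKBIB and TNFAIP3 had only such probe sets among those analysed and dropped out. Of the 5 still measured, 4 were above the level, and REL was not. Under that setting 46.5% of all genes were above.

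The replicates differed little for these genes. On the log2 scale the arrays were within 1 of each other, and within 0.58, for each of the 9 members. Of the 9368 genes that exceeded the level on either array, 0.0534% differed by over 1 and 0.875% by over 0.58. The difference (replicate 2 minus replicate 1) was smallest for NFKBIA at -0.01 and largest for RELB at -0.24. A difference at least as large as that of RELB was found in 9.94% of all genes above the level. The median absolute difference was 0.06 over the members and 0.07 over all genes above the level.

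The sign of these small differences was not the same in all probe sets of a gene. By the brightest probe set 6 members were higher in replicate 1 and 3 in replicate 2, while 56.9% of all genes above the level were higher in replicate 1. The brighter REL probe set differed by 0.06 and the dimmer by -0.11. The NFKBIB probe sets differed by 0.09 and -0.19. The TNFAIP3 probe sets both differed by -0.03.

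**Figure D2:**
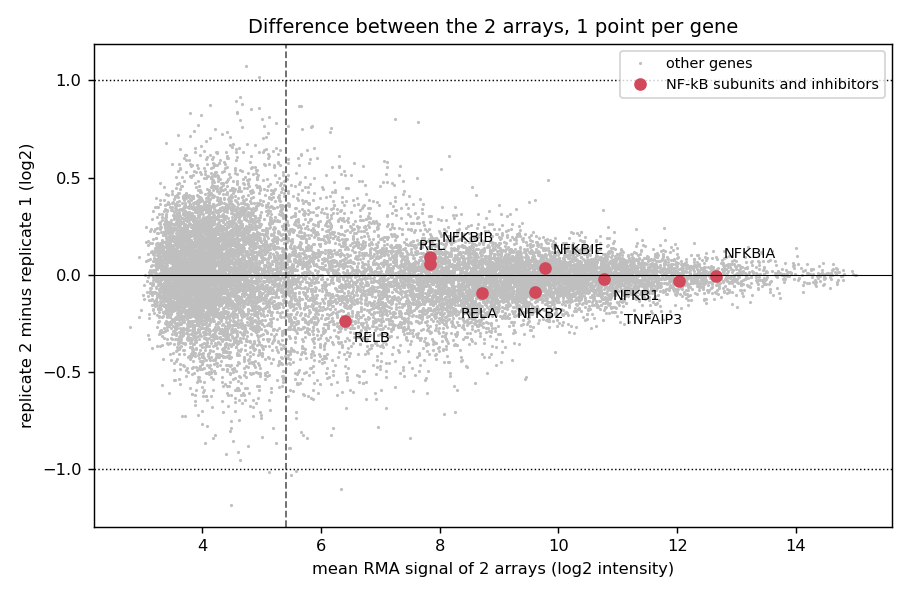
Difference between the arrays (replicate 2 minus replicate 1, log2) against the mean log2 signal, with 1 point per gene; red points are the 9 NF-kB genes, the dashed line is the background level and dotted lines mark a difference of 1. RELB lies furthest from 0 at -0.24, and all 9 are inside the dotted lines.

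NF-kB is known to act on its own genes, so their promoters were searched for the DNA letters it binds. RefSeq promoter windows (build GRCh38.p14), from 250 bases before to 50 bases after an annotated start site, were on hand for 8 of the 10 genes, in 13 windows. Windows of RELB and NFKBIE were not analysed here. The search used the 10-base kappaB consensus and a narrower form chosen after the matches were seen, GGG followed by any 2 bases and TTTCC, each on both strands. Overlapping matches were kept. All 8 narrow matches found in the members' windows were consensus matches too.

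The consensus occurred in a window of 7 of the 8 genes, against 13.3% of 27305 genes with a window. By window the count was 8 of 13, against 11.3% of 35116. The members' windows held 51.3% to 80% G and C, all but 1 of them above the mean of 57.5% over all windows; the part of base composition in the count was not tested. The consensus was absent from both RELA windows. The narrower motif occurred in 6 of the 8, NFKB1, NFKB2, REL, NFKBIA, NFKBIB and TNFAIP3, against 2.33% of all genes; since its letters were chosen from these matches, that contrast is a description of them and no support. BCL3 held the consensus only. A match describes the letters and does not show that a factor binds there.

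The same 10 letters recurred between members. The sequence GGGAATTTCC, read in the direction of the motif, was found in windows of NFKB1, REL, NFKBIA and NFKBIB, and in 0.179% of all genes. GGGACTTTCC was found in windows of NFKB2 and TNFAIP3, and in 0.227% of all genes. Both sequences were read from the members' own matches, so these contrasts are descriptions and no support. Each narrow match is shown here within 30 bases of the strand of its gene, 5′ to 3′, with the matched letters in capitals, to show how alike they are; capitals that begin with GGA are matches on the opposite strand.
NFKB1: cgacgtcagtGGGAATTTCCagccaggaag
NFKB2, middle start site: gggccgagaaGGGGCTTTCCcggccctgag
NFKB2, last start site: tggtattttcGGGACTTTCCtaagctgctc
REL: gtcagccgcgGGAAATTCCCctcccgccag
NFKBIA: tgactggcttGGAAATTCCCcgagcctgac
NFKBIB: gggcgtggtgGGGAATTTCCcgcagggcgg
TNFAIP3, upstream match: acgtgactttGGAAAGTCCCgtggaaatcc
TNFAIP3, downstream match: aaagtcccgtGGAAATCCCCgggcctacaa

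All 8 narrow matches of the members lay in the 100 bases before a start site, with first bases from -81 in NFKBIA to -21 in NFKB2. Over all windows 40.7% of 685 narrow matches began there. The narrower motif was chosen after the matches were seen, and it left out every consensus match of the members that began elsewhere. This contrast therefore describes the chosen matches and is no support. Of the 15 consensus match positions in the members' windows, which include those 8, 10 began in the same 100 bases, against 36% of 4815 over all windows. Those of the 10 that were not narrow matches overlap a narrow match, in REL (-47 beside -46) and NFKBIB (-27 beside -28). The 10 therefore add nothing to the 8. The 5 elsewhere were in NFKB2, NFKBIB and BCL3. The NFKBIA match covers chr14:35404821-35404830, and the TNFAIP3 matches cover chr6:137867192-137867201 and chr6:137867204-137867213. The NFKB1 match covers chr4:102501310-102501319 and the REL match chr2:60881528-60881537.

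**Figure D3:**
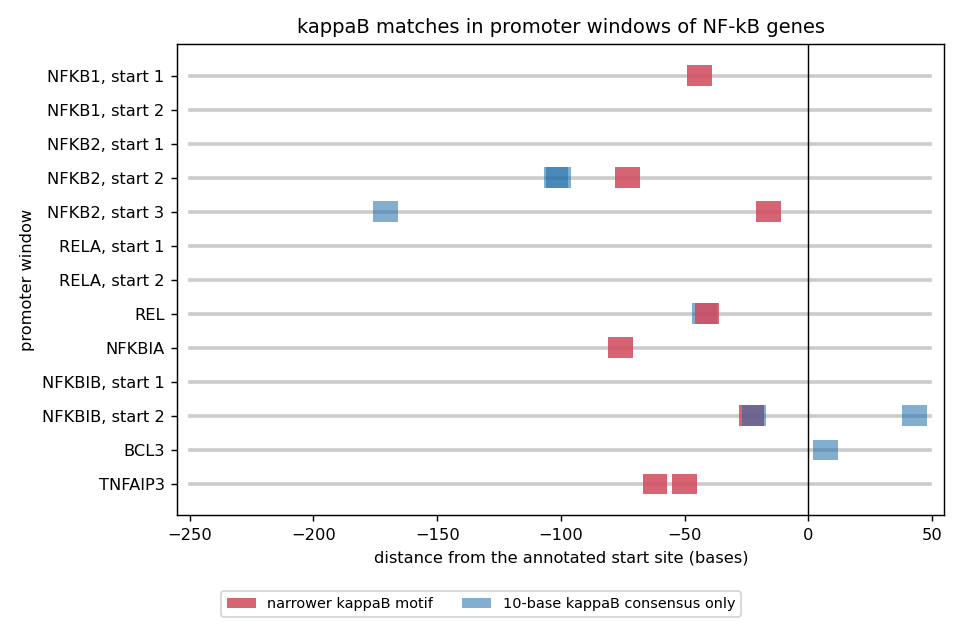
Matches in the 13 promoter windows of the 8 genes; the x axis is the distance in bases from the annotated start site at 0 and each grey line is 1 window. Red blocks are matches of the narrower motif and blue blocks of the consensus alone, and every red block lies between -81 and the start.

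The windows of NFKBIA and TNFAIP3, the inhibitors best known as feedback targets, are shown whole. A RELA window, of the member with no match, is shown beside them. Capitals mark the consensus matches.
NFKBIA, chr14:35404700-35404999, minus strand: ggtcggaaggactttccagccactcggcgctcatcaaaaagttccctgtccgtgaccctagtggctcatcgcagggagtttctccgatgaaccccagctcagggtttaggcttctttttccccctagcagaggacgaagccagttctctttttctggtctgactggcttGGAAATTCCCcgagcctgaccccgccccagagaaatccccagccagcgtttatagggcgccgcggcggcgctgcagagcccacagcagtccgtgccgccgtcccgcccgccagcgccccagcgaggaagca
TNFAIP3, chr6:137867009-137867308, plus strand: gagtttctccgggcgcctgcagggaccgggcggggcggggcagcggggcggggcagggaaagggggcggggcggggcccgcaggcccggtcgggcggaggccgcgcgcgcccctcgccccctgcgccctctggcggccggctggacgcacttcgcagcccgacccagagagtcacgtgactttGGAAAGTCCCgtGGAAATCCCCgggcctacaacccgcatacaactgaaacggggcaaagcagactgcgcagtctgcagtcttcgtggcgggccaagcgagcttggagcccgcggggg
RELA, chr11:65662867-65663166, minus strand: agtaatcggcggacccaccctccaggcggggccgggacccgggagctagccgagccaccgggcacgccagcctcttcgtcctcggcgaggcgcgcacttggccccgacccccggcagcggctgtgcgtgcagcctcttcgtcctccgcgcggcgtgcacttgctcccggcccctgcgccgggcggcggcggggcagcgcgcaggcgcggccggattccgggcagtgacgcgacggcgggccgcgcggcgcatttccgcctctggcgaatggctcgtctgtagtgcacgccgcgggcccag

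Of the IkB kinase complex and the kinases and adaptors above it, 10 of 13 measured genes were above background, with a median signal of 8.38, against 54.1% of all genes. Without _x_at and _s_at probe sets the count was 3 of 7, against 46.5% of all 13384 genes measured that way, so the higher share was not seen there. The 10 genes included all 3 parts of the IkB kinase complex: the catalytic subunits CHUK (9.07 and 8.66) and IKBKB (8.77 and 8.72) and the scaffold IKBKG (8.36 and 8.34). CHUK differed by -0.41 between the arrays, more than any member. The genes not above background were TAB1 (5.28 and 5.17) and TAB3 (4.99 and 5.16), adaptors of the kinase TAK1, and PRKCQ (4.17 and 3.81), the protein kinase C form used by T cells. Outside the naming rule, PRKCB, the form used by B cells, had 11.05 and 10.86, and MAP3K14, the kinase that starts the alternative arm, had 7.81 and 7.66.

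TRAF adaptors pass signals from CD40 and TNF receptors to the kinases. TRAF1, an adaptor that NF-kB itself induces, had 11.12 and 11.10. TRAF3, which keeps MAP3K14 low in resting cells, had 9.24 and 9.03, and TRAF5 had 9.03 and 9.03. All 3 were above background on both arrays. No count above background is given for their list, which was shortened after its values were seen, though the figures by list draw it.

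The further inhibitors were above background in 12 of 12 cases, with a median of 9.14, where 54.1% of all genes were above. Their list was drawn up with earlier results of these data known, so the count is a description. They included the nuclear IkB proteins NFKBID (5.90 and 6.01) and NFKBIZ (10.04 and 10.05) and the deubiquitinase CYLD (10.28 and 10.19), which removes chains that activate IkB kinase. The list's lowest mean signal was 5.70, so some members lay close to the level. The count was 9 when the 99th percentile set the level, where 7562 of all 16716 genes were above.

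Known target genes were divided by the cells that use them, in lists drawn up with earlier results of these data known, so the counts describe the lists and are no evidence of a contrast between them. Of targets used in B cells 33 of 33 were above background, with a median signal of 10.24, where 54.1% of all genes were above. Examples in the order of the list were TRAF1, the survival factor BCL2A1 (11.51 and 11.50) and CFLAR (12.14 and 12.19), which blocks caspase-8 activation. Of targets used mainly by stromal and myeloid cells 3 of 22 were above, with a median of 4.15. IL6 (4.54 and 4.65), CXCL8 (4.56 and 4.35), IL1B (5.27 and 5.54), CXCL1 (4.19 and 3.95) and CXCL2 (3.72 and 3.53), all inflammatory cytokine or chemokine genes, were not above on both arrays. The 3 above were the cytokine gene IL1A (6.47 and 6.54), the adhesion molecule gene VCAM1 (8.01 and 8.09) and TNFAIP6 (7.98 ± 0.03). The stromal and myeloid count was 7 when the 75th percentile set the level and 5 when a gene's probe sets were averaged. It was 0 of 14 when _x_at and _s_at probe sets were left out.

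**Figure D4:**
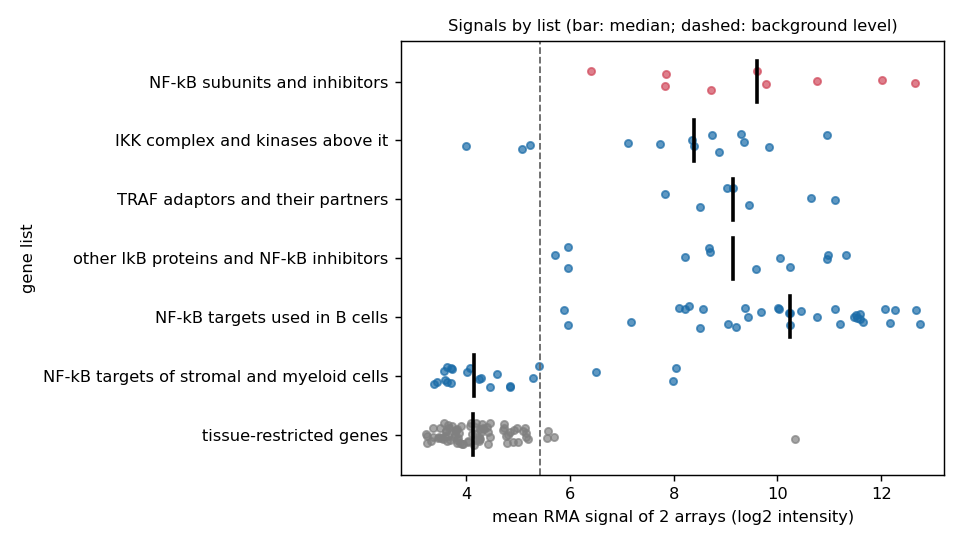
Mean log2 signal of each measured gene (points) by list, with the median of each list as a bar and the background level as a dashed line. The TRAF list was shortened after its values were seen, and nothing is read from it. The 9 NF-kB genes and the 33 targets used in B cells lie to the right of the line, and 19 of the 22 stromal and myeloid targets are not above it on both arrays.

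Both target lists held the kappaB consensus in part of their promoters. Among genes with a window and a probe set it was found in 12 of 26 targets used in B cells (46.2%) and in 8 of 15 stromal and myeloid targets (53.3%). Over all 27305 genes with a window the share was 13.3%. All 12 targets used in B cells with a match were above background, but so were all 33 measured targets on that list. Of the 8 stromal and myeloid targets with a match VCAM1 alone was, on a list where 3 of 22 were. For the B-cell targets the outcome was thus fixed whatever the match, and no link between match and signal is read from these counts. The narrower motif was found in 2 of the 26 targets used in B cells (7.69%), CD86 and LTB, both above background, against 2.33% of all genes. It was found in 6 of the 15 stromal and myeloid targets (40%), IL6, CXCL1, CXCL2, CXCL3, CXCL5 and SELE, and none of these 6 was above background. The genes with a match were named after their values were seen. Among the further inhibitors the consensus was found in 5 of 11, NFKBID, NFKBIZ, CYLD, TNIP1 and COMMD1. The consensus was found in 2 of 12 genes of the IkB kinase list (16.7%) and in 6 of 55 tissue-restricted genes (10.9%). Both of these shares were near that of all genes.

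**Figure D5:**
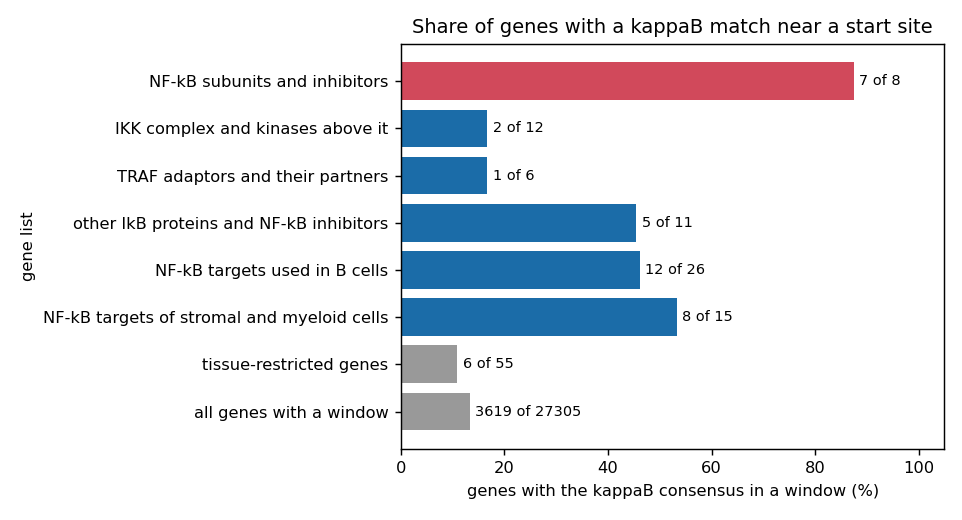
Percentage of genes with the kappaB consensus in a promoter window, by list, with counts beside the bars; genes with a window were counted, and in the pathway and tissue-restricted lists only those that also had a probe set. The bar for the NF-kB genes stands at 7 of 8 and includes BCL3, and that for all genes stands at 13.3%. The TRAF list was shortened after its values were seen, and nothing is read from its bar.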

How the data were processed

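The authors deposited 1 intensity per probe set and array, made with RMA, per the submitters' processing notes; no version is stated there. The values ran from 6.29 to 33093, a linear scale, and log2 was taken here. The sorted values of the arrays differed by at most 0.14, so a change in total messenger RNA could not be seen. RMA gives no detection call, and the number of arrays limits the precision. The table held 36289 probe sets, those with the lowest identifiers; further probe sets of the design were not analysed here. Gene names came from the platform annotation and were brought up to date through Entrez IDs with RefSeq's gene table (29461 of 29493 matched; 1407 had several symbols and 5389 none). The brightest probe set by mean log2 value stood for a gene, which counted as above background if both arrays exceeded the level. Promoter windows came from RefSeq (GRCh38.p14), and the files name no genome build.

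The genes and lists were chosen with earlier results of these data known. Named from each pathway list were its first 3 measured genes and up to 5 not above background; from the stromal and myeloid targets and the lists of other cell types also up to 5 above it. Genes named for a motif match or for comparison were chosen after their values were seen. No gene was named for a like pattern, since 2 arrays of 1 group give none. The calling steps were tested on simulated data. Python 3.11.15, pandas 2.3.3 and numpy 2.4.6 were used. Protein sequences were not used here. An item of the pathway lists is not reported here.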

Additional observations from a re-analysis of the deposited data

How the results depend on the processing

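The count of members above background was 9 of 9 when the 75th percentile of the tissue-restricted genes set the level, with the mean of all probe sets, after a repeat quantile normalization and without either replicate. It was 8 of 9 at the 99th percentile, where RELB was lost, and 4 of 5 once _x_at and _s_at probe sets were left out, where fewer genes could be measured. The count of 10 of 13 in the list of IkB kinase and the genes above it became 3 of 7 without those probe sets. The B-cell lineage count of 10 of 10 became 7 of 8 under the same setting. The stromal and myeloid count of 3 of 22 became 7 at the 75th percentile, 5 with the mean of all probe sets and 0 of 14 without those probe sets, and was 4 without either replicate. The cause was not tested. Without replicate 2 the T-cell count was 2 of 10. The count of all genes above background ranged from 9202 to 9216 when 1 replicate was left out, and was 7562 at the 99th and 10570 at the 75th percentile. No member differed by more than 1 between the arrays under any alternative run. In 24 of 27 cases a member's difference moved by less than its SD; the exceptions were NFKBIA after the repeat quantile normalization (0), and REL (-0.03) and NFKBIB (-0.05) with the mean of all probe sets, where the sign changed. The number of genes with a kappaB match was 7 of 8, 6 with the narrower motif and 5 with the first listed start site alone, both chosen after seeing the data. No paired analysis was possible because the study has 1 group.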

Other observations

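Over all measured genes with a promoter window, a kappaB consensus match went with a slightly higher share of genes above background, 60.5% of 2136 genes with a match and 57.1% of 10959 without. For the narrower motif the shares were 62.6% of 356 and 57.5% of 12739. No test was run, and genes are not independent replicates.

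Among the further inhibitors, PDLIM2, which encodes a ubiquitin ligase for RELA, differed most between the arrays. PDLIM2 had 6.26 in replicate 1 and 5.65 in replicate 2, a difference of -0.61 from its only analysed probe set. It was singled out after its values were seen.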
